A study of Mus musculus with 2 samples.

Results

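Collagen genes were described in 2 single-cell RNA libraries from mouse mammary tumours, one from vehicle-treated and one from β-elemene-treated mice. The members were the genes whose symbol has the form Col, a type number, a and a chain number, with at least 50 unique molecular identifiers (UMIs, each counted as a captured RNA molecule) over both libraries together. Of 32285 listed genes 44 had such a symbol, and 37 of them met the minimum. All mice had received 4T1 cells, a mouse mammary carcinoma line, in Matrigel and buffered saline in the mammary fat pad. The vehicle group was injected with normal saline, and the treated group with β-elemene, a plant sesquiterpene, at 30 mg/kg intraperitoneally each day, over 18 days. The tumours were dissociated to single cells and red cells were lysed. Each group was 1 library, and how many mice it pooled was not given in the sources used here, so no difference between the groups could be tested. The brackets and ranges after a ratio or share are exact 95% intervals, and they hold the error of counting alone.

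Collagens are secreted proteins in which α chains wind into a triple helix, and a type can be built from copies of a single chain or from chains of different genes. Fibrillar collagens assemble into the tensile fibres of connective tissue, and FACIT collagens attach to the surface of those fibres. Collagen type 4 forms the sheet-like network of basement membranes under epithelium and around vessels, whereas types 15 and 18 sit in basement membranes and carry side chains of sugars. In tumours the fibres are laid down mainly by fibroblasts, and a rich fibrous stroma is a known feature of mammary carcinoma.

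The 37 genes comprised 10 fibrillar chains, 7 chains of basement membranes, 7 beaded or network-forming chains, 7 FACIT chains, 4 transmembrane collagens and 2 others, Col7a1 of anchoring fibrils and Col28a1. The genes just inside the minimum were Col9a2 with 55 UMIs, Col9a1 with 60 and Col6a5 with 95, and the genes just outside it were Col26a1 with 43, Col4a3 with 41 and Col10a1 with 35. Col3a1 was the most abundant with 393632 UMIs, followed by Col1a2 with 284936 and Col1a1 with 249959. Col24a1 and Col20a1 each overlap another gene on the same strand, so their counts are uncertain.

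The start regions of a few members are shown because their RNAs were most abundant or were unequally counted between classes. RefSeq start windows (build GRCm38.p6, 250 bases before to 50 after a start) were matched by symbol for 32 of the 37 members. Each printed run holds 250 bases before and 30 from the start, 5′ to 3′ on the gene's strand. Capitals mark 3 motifs searched on both strands, the CCAAT box (CCAAT or ATTGG), the GC box (GGGCGG or CCGCCC) and the TATA box (TATAAA or TTTATA). Col1a2 (chromosome 6, 4505368 to 4505647, plus strand) and Col3a1 (chromosome 1, 45311288 to 45311567, plus strand) encode chains of fibrillar types 1 and 3, and Col6a1 (chromosome 10, 76726015 to 76726294, minus strand) and Col6a3 (chromosome 1, 90843942 to 90844221, minus strand) encode chains of the beaded type 6.
Col1a2: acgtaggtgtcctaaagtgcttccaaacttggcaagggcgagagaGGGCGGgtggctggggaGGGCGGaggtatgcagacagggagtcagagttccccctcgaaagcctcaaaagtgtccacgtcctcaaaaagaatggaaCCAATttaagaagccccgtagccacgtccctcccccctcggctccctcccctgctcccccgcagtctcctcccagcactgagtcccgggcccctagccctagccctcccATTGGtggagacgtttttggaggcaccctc
Col3a1: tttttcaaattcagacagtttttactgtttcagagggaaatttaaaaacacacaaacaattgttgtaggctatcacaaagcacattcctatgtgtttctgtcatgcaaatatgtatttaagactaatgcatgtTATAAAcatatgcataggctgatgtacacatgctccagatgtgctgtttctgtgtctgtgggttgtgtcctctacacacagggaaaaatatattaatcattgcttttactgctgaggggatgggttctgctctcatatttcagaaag
Col6a1: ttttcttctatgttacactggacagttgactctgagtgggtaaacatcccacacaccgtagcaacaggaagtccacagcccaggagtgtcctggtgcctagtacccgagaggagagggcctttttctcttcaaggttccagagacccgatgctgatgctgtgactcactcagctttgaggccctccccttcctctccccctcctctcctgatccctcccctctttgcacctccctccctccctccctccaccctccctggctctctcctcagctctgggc
Col6a3: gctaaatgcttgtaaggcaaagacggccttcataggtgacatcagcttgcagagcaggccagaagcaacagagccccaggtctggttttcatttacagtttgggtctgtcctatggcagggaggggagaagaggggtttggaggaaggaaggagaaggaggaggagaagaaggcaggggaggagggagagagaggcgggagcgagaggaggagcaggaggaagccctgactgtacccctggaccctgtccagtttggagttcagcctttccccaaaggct
The Col1a2 run held 2 CCAAT and 2 GC motifs, the Col3a1 run held 1 TATA motif, and the 2 type 6 runs held none of these letters. Over all windows of 300 bases a GC box stood in 35.7%, a CCAAT box in 37.4% and a TATA box in 13.6%. Among 35 windows of the members these shares were 62.9%, 34.3% and 11.4%. A match of letters is a description of the window and not evidence of binding.

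Several members are neighbours. Col4a1 and Col4a2 lie head to head on chromosome 8 and their annotated transcripts overlap at the starts, from 11312805 to 11312826 on the plus strand, which is shown because these 2 chains were counted in nearly the same ratio in 4 classes.
Col4a2 and Col4a1: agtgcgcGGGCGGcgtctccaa
The capitals mark 1 GC box. Col4a6 and Col4a5 lie head to head on the X chromosome with 1308 bases between them. Col3a1 and Col5a2 lie tail to tail on chromosome 1 with 24614 bases between them.

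The vehicle library held 11324 cell barcodes and the β-elemene library 11539, with median depths of 11878.5 and 9682 UMIs, and 10468 and 10570 cells were kept. The 2 libraries shared 28 kept barcodes. Collagen UMIs were 0.428% of all UMIs in the vehicle library and 0.414% in the β-elemene library. Cell classes were rebuilt by clustering without the collagen genes and named from marker lists that hold none, so collagen levels are not what defined them. Each class named below had all its own markers at 10 or more UMIs in both libraries. Pericyte-like cells stand for pericytes and other mural cells. A level is given as CPM, the UMIs of a gene per 1000000 UMIs of its class in a library. The 3′ method is meant to count a molecule once whatever its length, and CPM was not corrected for gene length. Whether intronic reads were counted is not given, and their part in differences between genes was not tested.

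Fibroblast-like cells were 653 vehicle cells and 647 β-elemene cells, and they held most of the collagen RNA of these tumours. They carried 83.9% (interval 83.8% to 84.0%) of the collagen UMIs of all kept cells in the vehicle library (688720 UMIs) and 84.5% (84.4% to 84.6%) in the β-elemene library (619768 UMIs). Per cell this was 885 and 810 collagen UMIs, at median depths of 20820 and 21831 UMIs. The summed collagen level was 40370 CPM in vehicle and 35045 CPM in β-elemene fibroblasts, which is 4.04% of all UMIs of vehicle fibroblasts. Malignant-like cells, 3993 and 3262 in number, were next with 11.3% and 10.2% of the collagen UMIs of kept cells at 844 and 794 CPM. Endothelial-like cells (195 and 197) stood at 6240 and 6289 CPM, and pericyte-like cells (45 and 44) at 8582 and 9199 CPM. In macrophages, monocytes, neutrophils, dendritic cells and T and NK cells the sum lay between 160.0 and 492 CPM. T and NK cells, which are not known to make these chains and are used as the measure of free RNA in the droplets, stood at 311 and 225 CPM.

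**Figure D1:**
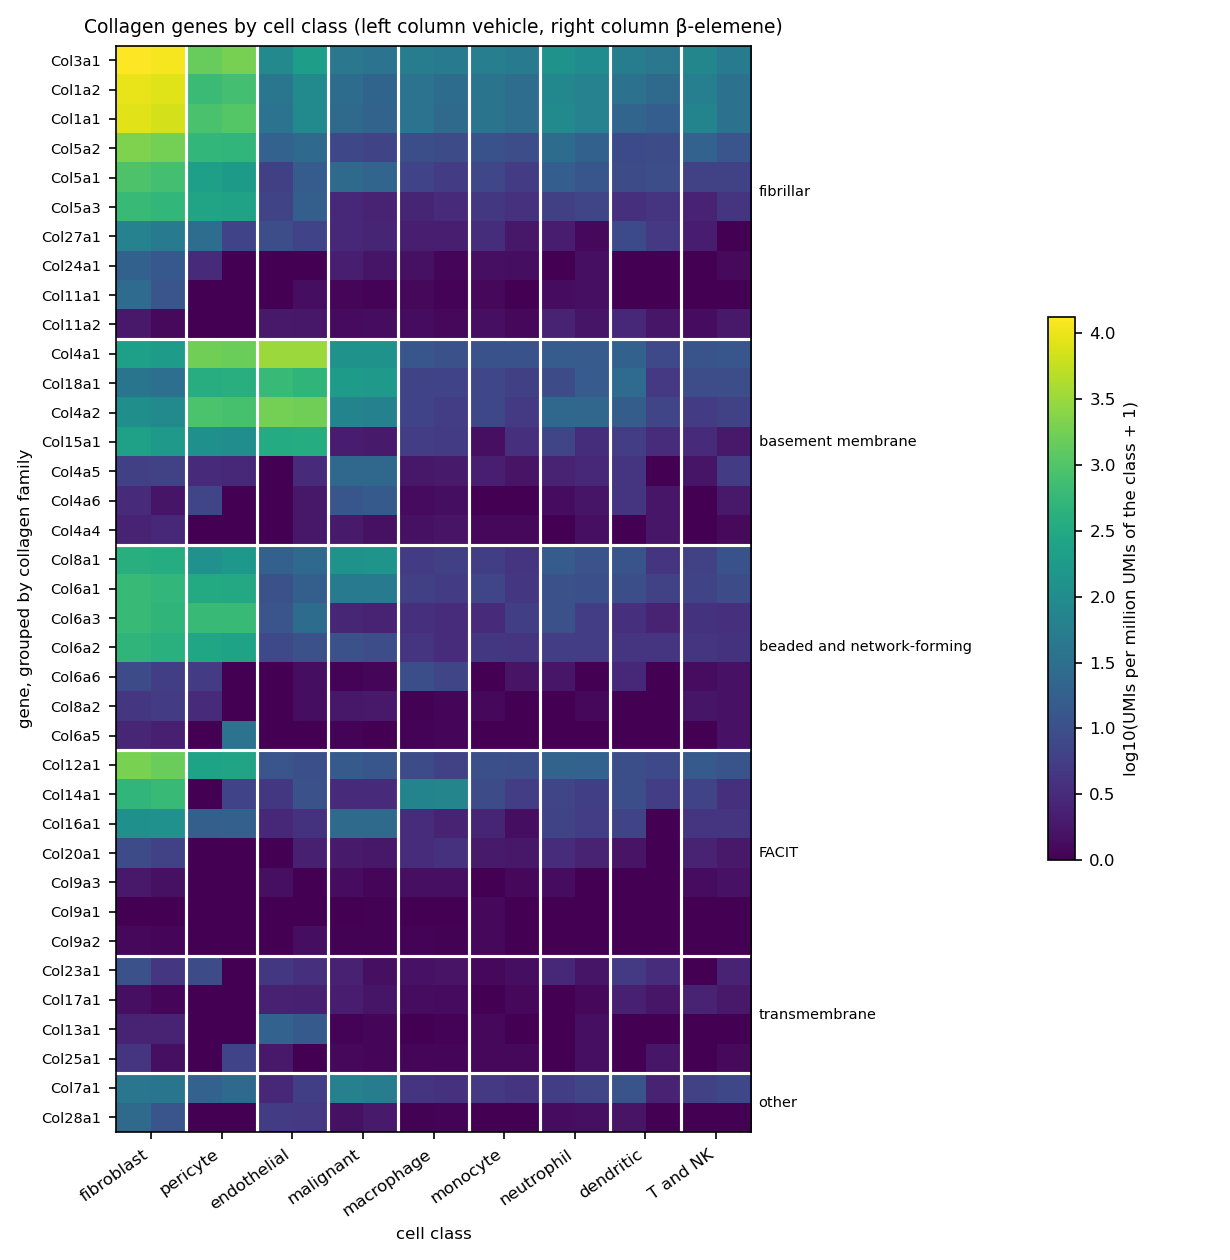
Colour gives the level of each of 37 collagen genes, as log10 of CPM plus 1, in 9 cell classes, with vehicle in the left and β-elemene in the right column of each class. Col3a1, Col1a2 and Col1a1 are highest in fibroblasts, Col4a1 and Col4a2 in endothelial cells, and Col14a1 stands out among the members in macrophages.

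The classes differed in the kind of collagen they held, and in fibroblasts and malignant cells the mix was nearly alike in the 2 libraries. In fibroblasts fibrillar chains were 86.7% of collagen UMIs in vehicle and 87.0% in β-elemene. Endothelial cells held 95.3% and 91.0% chains of basement membranes and 3.25% and 6.94% fibrillar chains. Of the 1003 fibrillar UMIs behind the β-elemene share 470 came from 1 cell, and without that cell the share was 3.84%. Pericytes stood between them, with 45.8% and 50.8% fibrillar and 35.6% and 31.2% basement membrane chains. Malignant cells had 49.3% and 49.6% basement membrane, 22.2% and 24.4% beaded or network-forming, and 15.7% and 13.6% fibrillar chains.

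**Figure D2:**
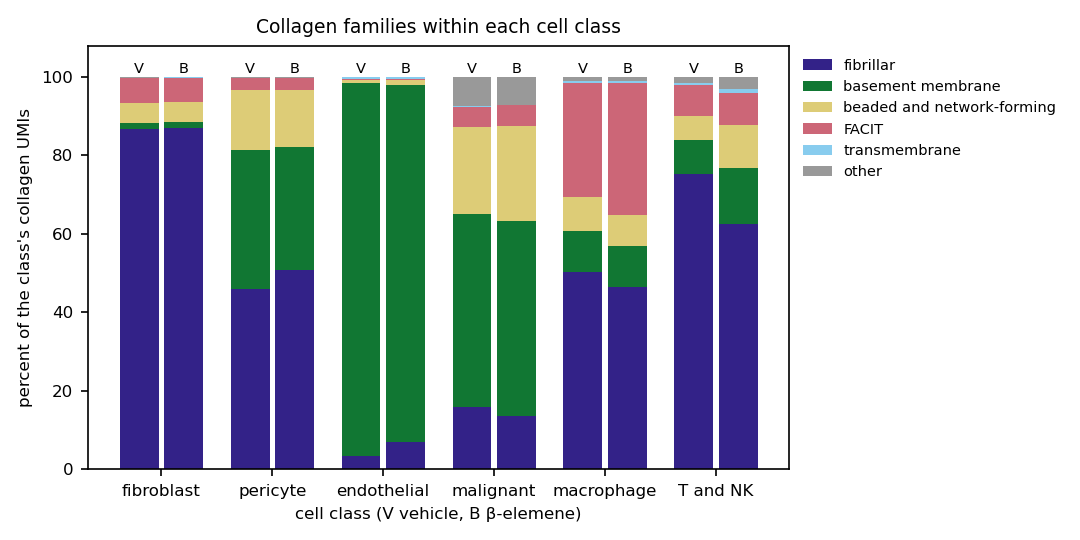
Stacked bars give the percent of a class's collagen UMIs that fell to each family, for vehicle (V) and β-elemene (B) in 6 classes. Fibrillar chains fill over 86% of the fibroblast bars, and basement membrane chains over 91% of the endothelial bars. The fibrillar share of the β-elemene endothelial bar (6.94%) is 3.84% without 1 cell.

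In fibroblasts the collagen sum was 0.868 times the vehicle value in the β-elemene library (0.865 to 0.871), and the difference was spread over most members. Of 37 members 29 had at least 50 UMIs in fibroblasts over both libraries, and 24 of these 29 had a ratio of β-elemene over vehicle below 1. The median log2 ratio of these 29 was -0.24, against 0.04 over all 12491 genes measured in fibroblasts. A gene was called lower or higher where its ratio was at least 1.5-fold from 1 and its interval excluded 1. By this rule 6 of 29 members were lower and 0 were higher, where 3.40% of all genes were lower and 2.27% were higher. No p-value stands behind a call, since each group is 1 library. With 10 CPM added to both levels, or with a minimum of 200 UMIs, 2 members were called. Of other cell types' markers, the neutrophil list summed to 140 CPM in vehicle and 414 CPM in β-elemene fibroblasts and the malignant list to 598 and 780 CPM, and their part in the result was not tested.

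The major fibrillar chains had smaller values with β-elemene and none passed the rule. Col3a1, the only chain of type 3 collagen, had 13141 CPM in vehicle and 11695 CPM in β-elemene fibroblasts. Col1a2 had 9713 and 8333 CPM and Col1a1 8463 and 7234 CPM, the 2 chains of type 1 collagen, the main protein of fibres. Their ratios were 0.890 (0.884 to 0.896), 0.858 (0.851 to 0.864) and 0.855 (0.848 to 0.862), so all 3 differed by less than 1.5-fold. Type 5 collagen, which starts fibrils and limits their width, followed with Col5a2 at 2082 and 1829 CPM, Col5a1 at 922 and 780.1 CPM and Col5a3 at 585 and 536 CPM. The ratios of these 3 chains lay between 0.846 and 0.915. Of the low fibrillar chains, Col27a1 was at 65.4 and 50.6 CPM and Col24a1 at 18.2 and 12.8 CPM, neither called. Col11a1, a chain of a minor fibrillar collagen that is often high in tumour fibroblasts, was called lower with 382 UMIs in vehicle and 165 in β-elemene, a ratio of 0.414 (0.342 to 0.498). It had UMIs in 93 vehicle cells and 55 β-elemene cells, and its ratio was 0.345 without the highest cell of each library.

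FACIT chains diverged from each other in fibroblasts. Col12a1, which binds the surface of fibres, had 1961 CPM in vehicle and 1496 CPM in β-elemene, a ratio of 0.763 (0.749 to 0.776). Col14a1, a related chain, had 522 and 601 CPM, a ratio of 1.15 (1.12 to 1.19), and was the only one of 29 with its whole interval above 1. The Col14a1 ratios within fibroblast states are given below. Col16a1 had 116 and 120 CPM, and its interval of 0.963 to 1.10 included 1. Col20a1 was called lower at 8.10 and 5.29 CPM, a ratio of 0.652, and was not called with detected doublets kept (0.669). Its mean over cells had the opposite direction, 1.28.

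Among the beaded, network-forming and basement membrane chains 1, Col6a6, was called in fibroblasts, and the ratios spanned 0.607 to 1.29. Type 6 collagen forms beaded filaments around cells from the products of Col6a1 (588 and 528 CPM), Col6a3 (591 and 494 CPM) and Col6a2 (499 and 408 CPM). Their ratios were 0.898, 0.836 and 0.818, all with intervals below 1 and none called. Col6a6, a rarer chain of the same type, was the one called, at 7.82 and 4.75 CPM, a ratio of 0.607 (0.444 to 0.825). Col8a1, of a short network-forming collagen, had 375 and 357 CPM, and its partner Col8a2 3.42 and 4.42 CPM, a ratio of 1.29 (0.878 to 1.91). Col4a1 and Col4a2 had 212 and 188 CPM and 112 and 94.0 CPM, ratios of 0.886 and 0.841. Col4a5 and Col4a4 were at 5.22 CPM or less in both libraries, with intervals that included 1. Col15a1 had 226 and 168 CPM, a ratio of 0.742 (0.704 to 0.782), and Col18a1 39.1 and 31.4 CPM, a ratio of 0.802.

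The other members called lower in fibroblasts were counted in few cells. Col28a1 had 360 UMIs in 88 vehicle cells and 167 UMIs in 70 β-elemene cells, which is 25.2 and 11.2 CPM and a ratio of 0.444 (0.367 to 0.535). Col23a1, a transmembrane collagen, had 138 and 52 UMIs, 9.64 and 3.48 CPM, a ratio of 0.361. Col25a1, also transmembrane, had 48 and 7 UMIs, a ratio of 0.140, but 20 of the 48 vehicle UMIs came from 1 cell. Without the highest cell of each library its ratio was 0.171 (0.0516 to 0.449). Col7a1 had 40.8 and 38.8 CPM and was not called.

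**Figure D3:**
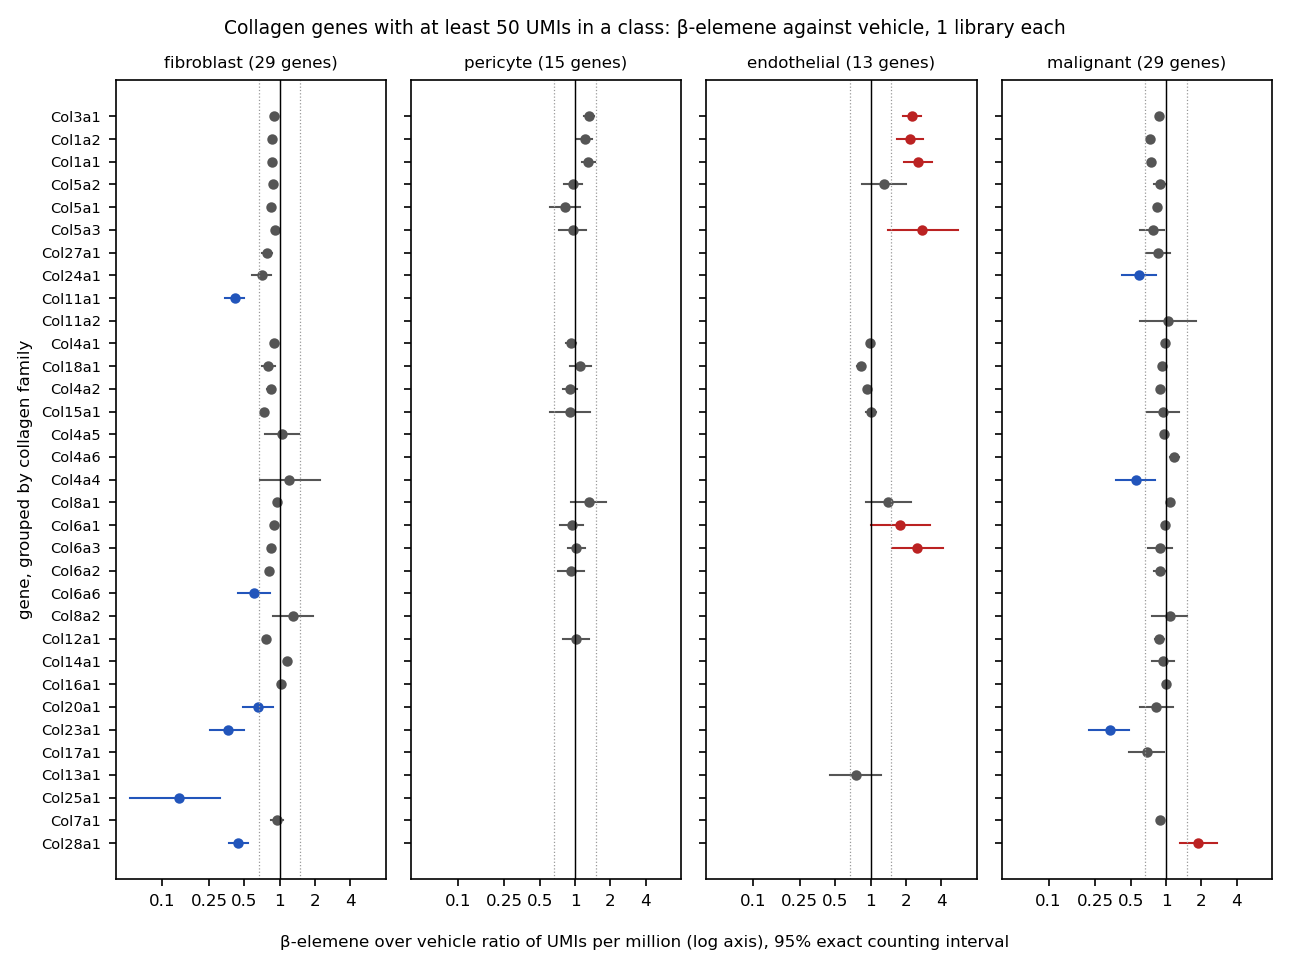
Points give the ratio of β-elemene over vehicle in CPM on a log axis, and lines its 95% exact counting interval, for each member with at least 50 UMIs in the class. Blue marks members called lower, red members called higher, and dotted lines 1.5-fold. In fibroblasts 24 of 29 points lie left of 1, with 6 called lower.

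Collagen made up a different share of each fibroblast cell. Its share of a vehicle fibroblast's UMIs had a median of 3.91%, with 90% of cells between 0.920% and 7.92%. In β-elemene fibroblasts the median was 3.34% and the same range 0.829% to 6.67%. The ranges overlapped. The fibroblasts were split into sub-clusters and these were named from marker lists without collagens. Myofibroblast-like cells, with contractile genes such as Acta2, were 250 in vehicle and 230 in β-elemene. Universal-type cells, marked by Dpt and Pi16, were 169 and 180, and inflammatory-like cells, marked by Saa3 and Cxcl12, 112 and 100. Of the myofibroblast-like list, Fap was lowest in its own state, at 79.6 CPM in vehicle and 72.2 CPM in β-elemene. It had 103 and 96.4 CPM in universal-type and 85.0 and 78.2 CPM in inflammatory-like cells. The other markers of that list were highest in myofibroblast-like cells in both libraries. Not all markers of the inflammatory-like list were highest in the inflammatory-like state. Ccl7 was at 869 and 969 CPM in universal-type against 660.4 and 711 CPM in inflammatory-like cells. In β-elemene Ccl2 (1412 against 1297 CPM) and Cxcl1 (1278 against 1181 CPM) were higher in universal-type cells too. A pair of sub-clusters in which over 50% of cells had the epithelial gene Epcam or the immune gene Ptprc (66 and 76 cells) was set apart as mixed, and 2 more had no name (56 and 61 cells). Saa3 itself, a marker of the inflammatory-like state, was at 10648 CPM in vehicle and 4652 CPM in β-elemene cells of that state, and its part in differences within the state was not tested. The markers of other states also moved. All 9 universal-type markers had larger values in β-elemene than in vehicle myofibroblast-like cells, with Ly6a at 135 and 258 CPM, Pi16 at 71.6 and 122 CPM and Sema3c at 23.3 and 50.3 CPM. In inflammatory-like cells the contractile genes were at 248 and 426 CPM (Acta2) and 261 and 450.5 CPM (Tagln). Their part in the ratios within the states was not tested.

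The collagen sum was lower with β-elemene in each of the 3 named states, and highest in inflammatory-like cells. It was 40059 CPM in vehicle and 34493 CPM in β-elemene myofibroblast-like cells, a ratio of 0.861 (0.856 to 0.866). Universal-type cells had 46923 and 43129 CPM, a ratio of 0.919 (0.913 to 0.926). Inflammatory-like cells had 53097 and 44324 CPM, a ratio of 0.835 (0.828 to 0.842). The sub-clusters within a state did not all share its direction. The universal-type state joined a sub-cluster at 1.07 with one at 0.859, and over all 11 sub-clusters the ratio ranged from 0.691 to 1.22. Ratios above 1 were found in 2 of the 11. Whether the sub-clusters differ in their response was not tested, as each has 1 library per group.

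The states differed more in which collagens they held than the libraries did. Against universal-type cells, vehicle myofibroblast-like cells had 27.9-fold more Col15a1 (338 against 12.1 CPM) and 21.9-fold more Col7a1 (73.6 against 3.37 CPM). In β-elemene cells these folds were 17.4 and 28.7. Col8a1 was 3.98-fold and 4.16-fold higher, and Col12a1 1.92-fold and 2.16-fold higher, in the myofibroblast-like state. In the other direction, Col14a1 had 176 CPM in vehicle myofibroblast-like and 1462 CPM in vehicle universal-type cells, a ratio of 0.120, and 245 and 1408 CPM in β-elemene cells. Its ratio of β-elemene over vehicle was 1.39 (1.28 to 1.51) in myofibroblast-like and 1.15 (1.06 to 1.24) in inflammatory-like cells. In universal-type cells, where its level was highest, the ratio was 0.963 (0.924 to 1.003). Col3a1 was also lower in myofibroblast-like cells, at 0.604 and 0.582 times the universal-type level, whereas Col1a1 was nearly level at 1.00 and 0.929. Of the 22 members compared, Col1a1 and Col5a1 (1.05 and 0.908) changed direction between the libraries, and the others did not.

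**Figure D4:**
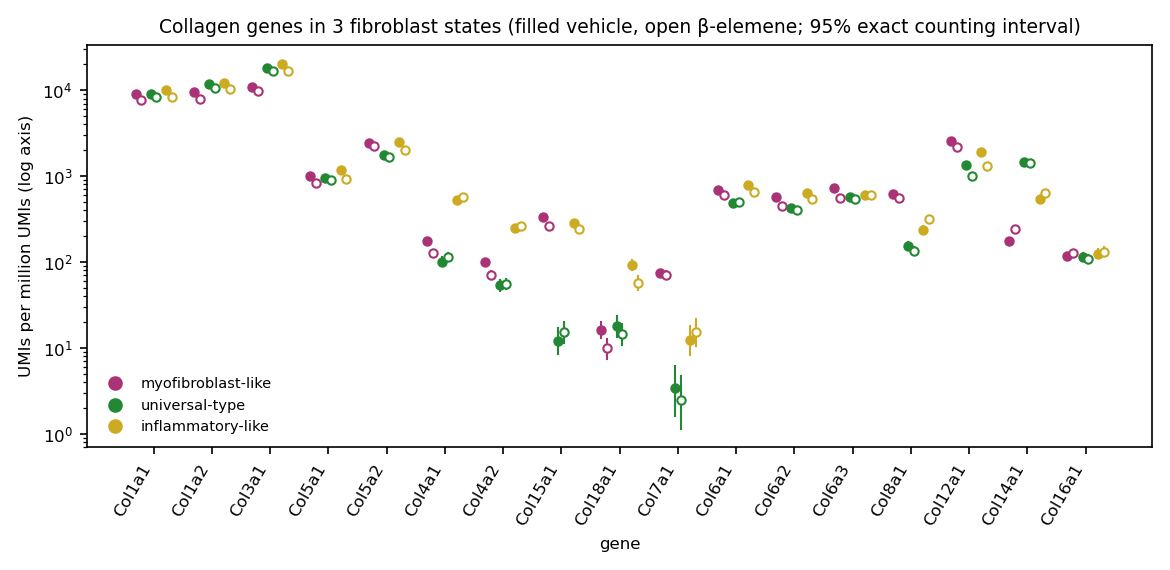
Points give the level in CPM on a log axis of 17 members in 3 fibroblast states, filled for vehicle and open for β-elemene, with 95% exact counting intervals. Col15a1 and Col7a1 are lowest and Col14a1 is highest in universal-type cells in both libraries.

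Col11a1 was found mainly in the myofibroblast-like state. It had 292 UMIs there and 2 UMIs in universal-type cells in vehicle, 50.0 against 0.674 CPM, a 74.2-fold ratio (20.4 to 616). In β-elemene it had 103 UMIs and 0 UMIs, a 22.2-fold ratio where the 0 is set to a floor of 3 counts. That value leaves out the counting error of the 103 UMIs and is not a lower limit. Within the myofibroblast-like state its level was 50.0 CPM in vehicle and 18.4 CPM in β-elemene, a ratio of 0.367 (0.290 to 0.461). In inflammatory-like cells it had 12.8 and 16.6 CPM, a ratio of 1.29 whose interval of 0.772 to 2.18 included 1. Whether these 2 ratios differ was not tested. Col28a1 was lower with β-elemene in all 3 named states, at 0.334, 0.475 and 0.414 times vehicle, and was highest in inflammatory-like cells at 89.2 and 36.9 CPM. In the myofibroblast-like state 5 of 25 measured members were lower, where 3.81% of all genes were, and in the universal-type state 3 of 22, where 2.60% were. In the inflammatory-like state 4 of 24 were lower, where 3.73% of all genes were.

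A single sub-cluster of the inflammatory-like state held Col4a1 far above the other sub-cluster of that state, though below the level of pericytes. It was led by Lpl, Apod and Mmp3 (52 vehicle and 48 β-elemene cells) and also had Col4a1 and Col4a2 among its leading genes. Col4a1 stood at 1085 CPM in vehicle and 1204 CPM in β-elemene, against 1661 and 1543 CPM in pericytes. Col4a2 stood at 522 and 541 CPM, against 904 and 823 CPM in pericytes. In the other sub-cluster of that state Col4a1 was at 39.9 and 73.3 CPM. Col18a1 in the Lpl sub-cluster was at 189.95 and 112 CPM, called lower, against 364 and 402 CPM in pericytes. A myofibroblast-like sub-cluster led by Megf11 had Col7a1 among its leading genes, at 157 and 167 CPM, the highest level among the named sub-clusters. An unnamed sub-cluster of 15 and 13 cells had 131 and 239 CPM.

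Pericyte-like cells, which wrap small vessels, held both fibre and basement membrane chains. Col4a1 had 1661 CPM in vehicle and 1543 CPM in β-elemene, and Col4a2 904 and 823 CPM. Col3a1 had 1428 and 1885 CPM, Col1a1 849 and 1095 CPM and Col1a2 639 and 769 CPM. These 3 fibre chains had larger values in β-elemene, and the 2 basement membrane chains smaller ones. Col6a3 had 592 and 606 CPM, Col6a1 329 and 308 CPM and Col6a2 261 and 242 CPM. The type 5 chains were at 526 and 504 CPM (Col5a2), 248.7 and 237 CPM (Col5a3) and 210 and 173 CPM (Col5a1). Of 15 measured members 0 were called, where 6.69% of all genes were lower and 5.47% higher in this class. The 3 fibrillar chains Col3a1, Col1a1 and Col1a2 had ratios of 1.32, 1.29 and 1.204 with intervals above 1. In β-elemene a single cell held 284 of 980 Col3a1 UMIs, a single cell 236 of 569 Col1a1 UMIs and a single cell 153 of 400 Col1a2 UMIs. Without the highest cell of each library the ratios were 1.16, 0.919 and 0.832, and as means over cells 0.774, 1.004 and 0.943. The summed ratio of 1.07 (1.03 to 1.12) became 0.921 without the collagen-richest cell of each library and 0.926 as a mean over cells, so its direction rested on a few of these 45 and 44 cells. The fibroblast marker list (6 and 7 of 11 markers at 10 or more UMIs) summed to 269 CPM in vehicle and 541 CPM in β-elemene pericytes, the malignant list to 1110 and 1683 CPM and the macrophage list to 986 and 1587 CPM. The skeletal muscle list summed to 487 CPM in vehicle (4 of 5 markers at 10 or more UMIs) and 11.5 CPM in β-elemene (0 of 5). The adipocyte list stood at 1178 and 777 CPM, all from 1 of its 5 markers, with the other 4 at 0 UMIs in both libraries. In endothelial cells the adipocyte list stood at 7602 and 6527 CPM. The part of all these lists in the pericyte ratios was not tested.

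Endothelial-like cells carried chiefly the 2 main chains of basement membrane, at nearly the same level in both libraries. Col4a1 had 3209 CPM in vehicle and 3192 CPM in β-elemene, a ratio of 0.995 (0.963 to 1.03). Col4a2 had 1804 and 1690 CPM, a ratio of 0.937 (0.896 to 0.980). Col18a1, whose cleaved end is endostatin, had 586 and 487 CPM, a ratio of 0.831 (0.766 to 0.902), and Col15a1 345 and 349 CPM. Col4a1 was found in 94.4% and 95.9% of endothelial cells against 4.60% and 4.66% of T and NK cells, at median depths of 9447 and 8939 against 4058 and 4417.5 UMIs. Thinned to 1000 UMIs per cell, which left out 8 and 9 endothelial cells and 32 and 21 T and NK cells, these shares were 85.0% and 85.1% against 0.3604% and 2.09%. Col13a1, a transmembrane collagen, was low at 18.7 and 13.9 CPM, yet endothelial cells held 54.1% and 43.8% of its UMIs in kept cells.

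More UMIs of fibrillar and beaded chains were counted in β-elemene endothelial cells, and much of the fibrillar excess came from 1 cell. By the same rule 6 of 13 measured members were higher and 0 were lower, where 4.21% of all genes were higher and 2.30% lower. Col1a1 had 77 UMIs in vehicle and 208 in β-elemene, a ratio of 2.52 (1.93 to 3.31). Col3a1 had 185 and 448 UMIs and Col1a2 88 and 203 UMIs, ratios of 2.26 and 2.15. One β-elemene cell held 120 of the Col1a1, 229 of the Col3a1 and 93 of the Col1a2 UMIs. The share of endothelial cells with a UMI was not larger, at 45.6% and 34.0% for Col3a1, 30.3% and 28.4% for Col1a2 and 28.7% and 27.4% for Col1a1. The β-elemene cell richest in fibrillar UMIs also held 44 UMIs of the fibroblast gene Dcn beside 15 of Pecam1 and 9 of Cdh5, 2 endothelial genes. Without it the ratios were 1.07 for Col1a1, 1.11 for Col3a1 and 1.17 for Col1a2, and 1 member, Col6a3, was called. The fibroblast marker list (3 and 7 of 11 markers at 10 or more UMIs) summed to 43.0 CPM in vehicle and 84.0 CPM in β-elemene endothelial cells and the malignant list to 227 and 517 CPM, and their part in the other calls was not tested. Col5a3 had 13 and 38 UMIs, Col6a3 24 and 64 UMIs and Col6a1 20 and 38 UMIs, ratios of 2.72, 2.48 and 1.77. With detected doublets kept, Col1a1, Col1a2, Col3a1 and Col5a2 turned to 0.436, 0.493, 0.686 and 0.571. Col6a1 was 0.818 as a mean over cells.

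Malignant-like cells held a collagen set of their own, at lower levels. Col18a1 had 181 CPM in vehicle and 166 CPM in β-elemene, Col4a1 128 and 127 CPM, Col8a1 125 and 134 CPM and Col4a2 70.1 and 62.8 CPM. Col7a1, whose product anchors epithelium to the tissue below, had 61.9 and 55.3 CPM, and Col6a1 49.8 and 48.5 CPM. The ratios of these 6 members lay between 0.893 and 1.08. Because malignant cells were many, they held 87.5% and 86.0% of the Col18a1 UMIs in kept cells, 87.7% and 84.8% of Col7a1, 66.1% and 64.6% of Col8a1 and 51.2% and 46.8% of Col4a1. Of the UMIs in kept cells they also held 90.5% and 89.2% of Col4a5 and 91.4% and 93.0% of Col4a6, which had 23.1 and 22.3 CPM and 11.6 and 13.7 CPM. Col4a6 had a ratio of 1.18 (1.08 to 1.28). In the malignant cluster with its highest level (987 and 1159 cells) the ratio was 1.0007 (0.888 to 1.13). In the cluster of 1484 and 914 cells it was 1.14 (0.965 to 1.34). In that of 821 and 470 cells it was 0.852 (0.6605 to 1.09). Clusters of 380 and 309 and of 321 and 410 cells had no ratio, at 5.62 and 7.75 CPM and 3.23 and 4.002 CPM. Col18a1 ratios within clusters lay between 0.929 and 1.03. The part of cluster sizes in the class ratios was not tested.

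These chains stood far above free RNA in malignant cells, but the type 1 chains did not. Per 100 cells there were 419 Col18a1 UMIs in vehicle and 406 in β-elemene malignant cells, against 3.92 and 4.35 in T and NK cells. Col4a1 gave 298 and 310 against 4.94 and 6.06. For Col1a1 the values were 59.9 and 47.4 against 32.7 and 18.0, at malignant depths of 20733 and 21369.5 UMIs per cell. Col1a1 was 25.8 and 19.4 CPM in malignant cells, below the 70.9 and 34.2 CPM of T and NK cells. Thinned to 1000 UMIs, Col18a1 was found in 14.1% and 13.9% of malignant cells against 1.44% and 0.963% of T and NK cells, and Col1a1 in 2.55% and 2.11% against 4.14% and 4.65%. The ratios of Col1a1 (0.752) and Col1a2 (0.738) in malignant cells stand beside ratios of 0.483 and 0.588 in T and NK cells, and the part of free RNA in them was not tested.

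The chains of one collagen type were unequally counted in malignant cells. In fibroblasts Col6a1, Col6a2 and Col6a3 were near equal, with Col6a1 at 1.18 and 1.29 times Col6a2 and 0.996 and 1.07 times Col6a3. In malignant cells Col6a1 was 5.25 (4.88 to 5.65) and 5.81 (5.35 to 6.31) times Col6a2, and 27.8 (23.8 to 32.6) and 30.5 (25.5 to 36.6) times Col6a3. Col6a3 there was 1.79 and 1.59 CPM, Col6a2 9.48 and 8.35 CPM. For type 5, Col5a1 was 3.71 and 3.51 times Col5a2 in malignant cells against 0.443 and 0.427 in fibroblasts. In malignant cells Col5a1 was at 25.1 and 21.1 CPM, Col5a2 at 6.78 and 6.01 CPM and Col5a3 at 2.01 and 1.54 CPM. Col5a2 was higher in T and NK cells, at 18.5 and 11.2 CPM, and the part of free RNA in these chain ratios was not tested. Col4a1 was 1.78 to 2.02 times Col4a2 in fibroblasts, pericytes, endothelial and malignant cells of both libraries. Within this span the malignant intervals of the 2 libraries, 1.78 to 1.89 and 1.95 to 2.09, did not overlap. In neutrophils Col4a1 was 0.644 (0.417 to 0.985) and 0.659 (0.465 to 0.929) times Col4a2. Col1a1 was 0.871 and 0.868 times Col1a2 in fibroblasts and 1.33 and 1.42 times in pericytes, with intervals that do not overlap.

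**Figure D5:**
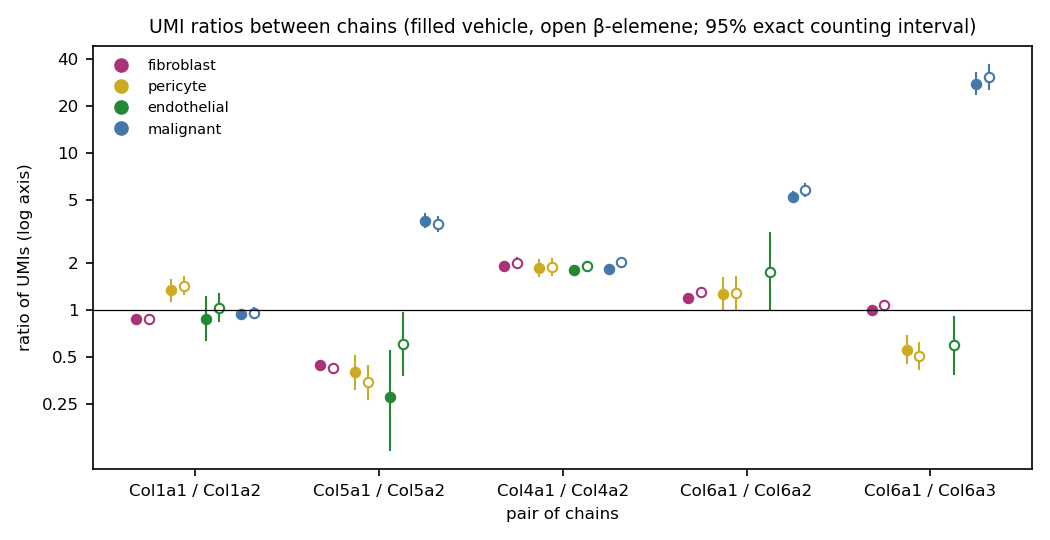
Points give the ratio of UMIs between 2 chains on a log axis in 4 classes, filled for vehicle and open for β-elemene, with 95% exact counting intervals, where both chains had enough UMIs. Malignant cells are apart for Col6a1 over Col6a3 (27.8 and 30.5) and Col5a1 over Col5a2. The 4 classes shown lie between 1.78 and 2.02 for Col4a1 over Col4a2.

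Few members were called between the libraries in malignant cells. Of 29 measured members 3 were lower and 1 was higher, where 6.93% of all genes were lower and 1.57% higher. Col23a1 had 130 UMIs in vehicle and 37 in β-elemene, a ratio of 0.331 (0.223 to 0.480). Col24a1 had 116 and 59 UMIs (0.591), Col4a4, a chain known from the kidney, 92 and 44 UMIs (0.556), and Col28a1 50 and 81 UMIs (1.88). Their levels were at most 1.40 CPM in either library. With 10 CPM added or a minimum of 200 UMIs 0 members were called. The median log2 ratio of the 29 members was -0.17 against -0.03 over all genes.

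Col14a1 was the member that set macrophages apart from the other immune classes. It had 70.4 CPM in vehicle and 73.9 CPM in β-elemene macrophages and was found in 40.4% and 39.6% of them, at median depths of 12625.5 and 11427 UMIs. In T and NK cells it was found in 2.39% and 1.40%, and in monocytes in 4.94% and 3.01%. Thinned to 1000 UMIs the shares were 6.14% and 5.83% in macrophages against 0.3604% and 0.803% in T and NK cells. Macrophages held 24.8% and 21.9% of the Col14a1 UMIs in kept cells. Among macrophage clusters of over 100 cells in both libraries it was highest in the large cluster led by Apoe and C1qa, at 88.3 and 86.5 CPM, and in dividing cells, at 74.2 and 85.3 CPM. It was 34.2 and 38.7 CPM in the cluster led by Mrc1 and Lyve1. Col6a6 was the second such member, with 71.0% and 70.9% of its UMIs in kept cells found in macrophages, where 6.06% and 4.77% of cells had it. Of 22 members measured in macrophages 0 were called, where 2.34% of all genes were lower and 1.19% higher.

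In the other immune classes the members counted were mostly the chains most abundant in fibroblasts. In T and NK cells 4 of 7 measured members were lower and 0 higher, where 2.94% of all genes were lower and 2.70% higher. These were Col1a1 (192 and 116 UMIs, ratio 0.483), Col1a2 (159 and 117 UMIs, 0.588), Col3a1 (210 and 172 UMIs, 0.654) and Col5a2 (50 and 38 UMIs, 0.607). The highest vehicle cell of each held 15.7% to 24.5% of its UMIs, and without the highest cells the ratios were 0.628, 0.740, 0.763 and 0.737, so that 1 of the 4 stayed past 1.5-fold. In T and NK cells the fibroblast marker list (7 and 5 of 11 markers at 10 or more UMIs) summed to 51.3 CPM in vehicle and 32.7 CPM in β-elemene, the neutrophil list (6 and 7 of 11) to 859 and 276 CPM and the malignant list to 261 and 351 CPM. Their part in these calls was not tested. In neutrophils 1 of 11 measured members was lower, Col5a2 at 0.652, where 3.94% of all genes were, and 1 was higher, Col18a1 at 1.73, where 1.57% were. In monocytes 0 of 8 members were called, where 2.41% of all genes were lower and 2.26% higher, and in dendritic cells 0 of 3, where 7.71% were lower and 2.74% higher. The summed collagen of dendritic cells was 411 and 206 UMIs, a ratio of 0.584 (0.492 to 0.692), and its basement membrane chains had 107 and 27 UMIs, a ratio of 0.294 (0.185 to 0.452). In dendritic cells the malignant list summed to 662 and 271 CPM and the macrophage list to 2345 and 1232 CPM. The B and plasma list stood at 948 and 768 CPM, with 5 of 6 markers at 10 or more UMIs in both libraries. The neutrophil list was at 598 and 873 CPM and the monocyte list at 714 and 878 CPM. The part of these lists was not tested.

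How closely 2 chains varied together from cell to cell differed between pairs and classes. On log2 of UMIs per 10000 plus 1, Pearson's r of Col1a1 with Col1a2 was 0.87 over 653 vehicle and 0.90 over 647 β-elemene fibroblasts, and that of Col4a1 with Col4a2 was 0.82 and 0.87. Col6a1 with Col6a2 had 0.73 and 0.73, Col1a1 with Col3a1 0.72 and 0.74, and Col5a1 with Col5a2 0.48 and 0.45. Col1a1 with Col4a1 had r of -0.09 and -0.07 in the same cells. In endothelial cells Col4a1 with Col4a2 had 0.75 and 0.82, and in malignant cells 0.31 and 0.37. Col5a1 with Col5a2 had -0.03 and 0.01 in malignant cells. Cells of a library share its depth and free RNA, so these are descriptions.

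No listed gene of the machinery that folds, secretes, cuts and links collagen was called in fibroblasts, and 2 genes of other lists were. The 9 lists held 87 genes. They covered chain modification and folding, secretion, propeptide cutting, cross-linking, fibril-binding proteoglycans, receptors and uptake, basement membrane partners, collagen cleavage and TGF-beta. Of these genes 81 were measured, 0 were higher and 2 were lower, where 2.27% of all genes were higher and 3.40% lower. The median log2 ratio was -0.05 over 19 genes of chain modification and folding (6 above a ratio of 1), 0.02 over 7 of secretion (4 above 1), -0.15 over 5 of cross-linking (1 above 1) and 0.15 over 7 fibril-binding proteoglycans (6 above 1), against 0.04 over all genes. Serpinh1, the collagen-binding chaperone Hsp47, had 1526 CPM in vehicle and 1525 CPM in β-elemene. Sparc, a collagen-binding matrix protein, had 9409 and 9205 CPM. Lox, which cross-links fibres, had 1104 and 997 CPM, a ratio of 0.903. Of the small proteoglycans that coat fibres, Dcn was at 2030.3 and 2291 CPM (ratio 1.13) and Bgn at 2453 and 2023 CPM (0.825). The 2 called genes were Itga1, a collagen receptor chain, at 51.6 and 29.9 CPM, and Mmp13, a collagenase, at 36.3 and 3.81 CPM. One vehicle cell held 245 of the 520 Mmp13 UMIs, and without the highest cell of each library the Mmp13 ratio of 0.105 became 0.164 (0.117 to 0.224). In malignant cells 7 of 81 measured genes were lower, among them Loxl2 (0.518) and Loxl1 (0.605) of cross-linking and Itga11 (0.470), each at 3.81 CPM or less, and 2 were higher, where 6.93% of all genes were lower and 1.57% higher. In endothelial cells 3 of 52 were higher, with Dcn among them, and 0 were lower, where 4.21% and 2.30% of all genes were. In pericytes 7 of 46 were lower, where 6.69% of all genes were, and 1, Dcn, was higher, where 5.47% were. The 7 were Colgalt1 and Fkbp10 of chain modification and folding, Lama2 and Nid1 of basement membranes, the collagenase Mmp14, and Tgfbr1 and Ltbp1 of TGF-beta signalling.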

How the data were processed

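Single-cell libraries were made with 3′ version 3 chemistry, per the labels' protocols. The deposited values are raw UMI counts per gene and barcode made by the authors with Cell Ranger 7.1.0 on build mm10, per the file headers and the submitters' processing notes. The annotation release and the use of intronic reads are not given in the sources used here. Coordinates are those of the GENCODE annotation of GRCm38 or of RefSeq.

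Cells with at least 200 genes and at most 20% mitochondrial UMIs were kept. Doublets were called with Scrublet (335 vehicle and 291 β-elemene cells, 3.10% and 2.68%) and left out. Both libraries were clustered together with scanpy 1.11.5 and igraph 0.11.9 (2000 variable genes without collagens, 30 components, 15 neighbours, resolution 1, sub-clusters 0.6). Clusters were named from marker lists, and 2 clusters led by genes of normal mammary epithelium were left unnamed by a rule added after the clusters were seen. The members, lists and naming of genes were chosen with earlier results of these data known.

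UMIs were summed per class and library. Ratios have conditional exact intervals, levels Poisson and shares binomial (Clopper-Pearson) intervals, all for counting error only. A member was called with at least 50 UMIs, at least 1.5-fold and an interval without 1. The call rule was tried on simulated Poisson counts, which hold counting error alone. The simulation had no spread between cells or libraries, so it cannot show how the rule performs with such spread. Named members are the 6 most abundant and the called ones in each of 4 classes and all chains of types 1, 4, 5 and 6. The alternatives were other resolutions, filters, scalings, minimums and left-out cells.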

Additional observations from a re-analysis of the deposited data

Results flagged for a closer look

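Col28a1 was called in opposite directions in 2 cell classes. Its ratio of β-elemene over vehicle was 0.444 in fibroblasts (360 and 167 UMIs) and 1.88 in malignant cells (50 and 81 UMIs). The difference between the classes was not tested, since each class has 1 library per group. In malignant cells its level was 0.540 and 1.02 CPM, and with 10 CPM added its ratio there was 1.05.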

How the results depend on the processing

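No paired analysis was possible because each group has 1 library. The fibroblast share of collagen UMIs in kept cells (83.9% vehicle, 84.5% β-elemene) was 83.4% in vehicle with doublets kept, 84.3% and 84.9% under the stricter cell filter (500 genes, 10% mitochondrial), 85.6% and 86.0% with free RNA subtracted, and 82.1% and 82.6% without the mixed sub-clusters, an alternative chosen after seeing the data. The summed ratio in fibroblasts (0.868) was 0.872 at resolution 0.5, 0.845 with doublets kept, 0.863 scaled without collagen UMIs, 0.843 scaled by the median ratio and 0.883 without the mixed sub-clusters. In pericytes (1.07) it was 1.005 under the stricter filter, 0.921 without the collagen-richest cells and 0.926 as a mean over cells. In endothelial cells (1.008) it was 1.04 under the stricter filter and as a mean over cells, 0.962 by median ratio scaling and 0.976 without the cell richest in fibrillar UMIs, also chosen after seeing the data. In malignant cells (0.941) it was 0.953 with free RNA subtracted, 0.960 by median ratio scaling and 0.923 as a mean over cells. Members called were 2 in fibroblasts and 0 in malignant cells with a minimum of 200 UMIs or 10 CPM added. In endothelial cells 3 were called with a minimum of 200 UMIs or without the highest cells, and 1 without the cell richest in fibrillar UMIs, which also took the fibrillar share of collagen UMIs in β-elemene endothelial cells from 6.94% to 3.84%. With doublets kept, the endothelial ratios of Col3a1, Col1a2, Col1a1 and Col5a2 reversed to 0.686, 0.493, 0.436 and 0.571. As means over cells, Col20a1 in fibroblasts reversed to 1.28 and Col6a1 in endothelial cells to 0.818. Of 806 values of the named members and of that share under the alternatives, 774 kept their call or their lack of one, 22 lost a call and 3 gained one. A member under the UMI minimum of an alternative had no value there. The calls lost through the minimum of 200 UMIs are therefore not among these 806 values. A minimum of 10 or of 200 UMIs changes no ratio or interval of a member that keeps a value. The 61 and 46 values under these settings could therefore only stay the same, and they are counted among the 774. Depth limits the rare members: 8 of 37 had fewer than 50 UMIs in fibroblasts, and 22 of 37 in pericytes.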

Other observations

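An unnamed cluster led by Wfdc18, Igfbp5 and Csn3, genes of mammary epithelium (49 vehicle and 33 β-elemene cells), held several members that were rare elsewhere. Col9a3, a FACIT chain known from cartilage, was at 70.1 CPM in vehicle and 113 CPM in β-elemene there. Col17a1, a collagen of epithelial anchoring junctions, was at 45.3 and 96.5 CPM, and Col4a6 at 49.8 and 90.1 CPM. Col14a1 was at 156 and 209 CPM, with UMIs in 18.4% and 24.2% of the cells. In a second unnamed cluster, led by Ptn, Prlr and Krt19 (72 and 40 cells), Col8a1 had 169 and 138 CPM, in 63.9% and 72.5% of cells, while Col4a1 had 22.5 and 15.1 CPM.

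Col6a5 had 19 UMIs in 5 β-elemene pericytes, 11 of them in 1 cell, and 0 UMIs in vehicle pericytes, where the floor was set at 3 counts.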
